A study of Mus musculus with 6 samples.

Results

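The expression of 10 genes of the circadian clock was followed in RNA sequencing libraries of mouse lung, the tissue named in the labels. The genes were matched by exact symbol in the deposited table of 21956 gene IDs, and all 10 were found, each in 1 row. Gene coordinates below are on mm10. They are Clock, the repressor genes Cry1, Cry2, Per2 and Per3, the nuclear receptor genes Nr1d1 and Nr1d2, and the output factor genes Dbp, Tef and Hlf. The labels give 2 groups of 3 libraries, Aalter and VE, and spell out neither name. From the study's title, the work concerns alpha tocopherol (a vitamin E compound), allergic airway inflammation, ferroptosis of group 2 innate lymphoid cells and the kinase LKB1, and the comparison is of VE with Aalter. Strain, age, dose, treatment schedule and the time of day at which tissue was taken are not given in the labels, nor is it said that the libraries come from separate animals. The p-values thus measure the spread between these libraries, which may be technical.

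The circadian clock is a feedback loop of transcription that runs in most mammalian cells. The proteins CLOCK and BMAL1 bind together to E-box sequences and switch on the period (Per) and cryptochrome (Cry) genes, whose products return to the nucleus and block them. A second loop is made by the REV-ERB receptors, encoded by Nr1d1 and Nr1d2, which repress Bmal1 through the elements that ROR receptors use to activate it, and the PAR bZIP factors DBP, TEF and HLF carry the rhythm to genes with a D-box. In lung, clock proteins of airway epithelium and macrophages are known to restrain inflammatory genes, REV-ERB alpha among them.

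The libraries held between 11617074 and 16205053 estimated counts. Aalter-1 stood apart from its group. On the first principal component, which held 66.7% of the variance, it scored 2.34, against -61.4 and -56.0 for Aalter-2 and Aalter-3 and 38.8, 36.0 and 40.2 for VE. The clock genes are therefore given with and without it, and the other pathway genes where the call changes. Aalter-1 was singled out from these same data, by its place between its group and VE. Leaving it out therefore tends to widen the gap between the groups and to narrow the spread of Aalter. The p-values without it are a description and no independent evidence. Markers of alveolar epithelium summed to between 95.9 and 102 counts scaled to library size (CPM, edgeR's normalised read counts) in Aalter. In VE they summed to between 109.8 and 123 CPM. The 8 neutrophil markers summed to between 25298 and 29615 CPM in Aalter against between 35908 and 43898 CPM in VE. The surfactant gene Sftpc had 12.6 to 18.3 CPM and the neutrophil marker S100a9 11675 to 20619 CPM. Neutrophil markers thus stood far above epithelial ones in every library, and the clock values below are of this mixture. Leukocyte markers moved with the groups, with 7 of 8 neutrophil markers and 5 of 6 monocyte and macrophage markers higher in VE and 4 of 6 B cell and 4 of 6 T cell markers lower. The summed levels were 184 to 211 CPM in VE against 244 to 279.9 CPM in Aalter for B cells, 459 to 532 against 549 to 748 CPM for T cells, and 4139 to 4339 against 1892 to 3078 CPM for monocytes and macrophages. In these lists Cd3g, a T cell marker, rose against the others and Cx3cr1, a marker of patrolling monocytes, fell. Of 5 club cell markers 4 were lower in VE, with sums of 108 to 138 CPM against 216 to 407 CPM. Of 5 natural killer cell markers 4 were lower, with sums that overlapped at 544 to 825 against 566 to 641 CPM. Gzma, the other natural killer cell marker, was higher in VE, at 494 to 768 against 388 to 450.1 CPM, but did not pass. Ager and Hopx of alveolar epithelium rose, 2 of 6 endothelial markers fell and 1 rose, and 1 of 8 markers of fibroblasts and smooth muscle rose. Endothelial and fibroblast markers summed to 49.9 to 55.8 and 79.7 to 93.6 CPM in VE and to 53.6 to 63.6 and 65.2 to 78.4 CPM in Aalter. The part of these cell types in the results below was not tested, and in bulk RNA fewer cells of a type and less RNA per cell cannot be told apart.

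Of the 10 clock genes, 3 were lower in VE by the test, 0 were higher and 7 did not pass. Cry2 fell 2.73-fold, Per3 fell 2.86-fold and Nr1d2 fell 1.41-fold. Over all 12551 genes tested, 32.3% passed in either direction, 19.5% downward and 12.8% upward, so 3 of 10 is close to the background and is not a result about the clock genes as a group. At an unadjusted p under 0.05 edgeR gave 5 clock genes lower and 0 higher, against 46.2% of all genes, 25.0% lower and 21.2% higher. DESeq2 and limma-voom each called 3 lower and 0 higher after adjustment, against 34.3% and 32.7% of all genes. The median log2 fold change of the 10 genes was -0.40, against 0.023 over all genes tested, and with the trends on GC content and transcript length removed these medians were -0.087 and 0.017. Each adjusted p comes from the edgeR quasi-likelihood fit, corrected by Benjamini-Hochberg over all genes tested and read at 0.05, and each fold change sets VE over Aalter. Upward calls were 39.8% of all calls in this fit, 13.3% with library size alone as scaling and 51.3% with the trends on GC content and transcript length removed. The groups did not overlap in 6 of the 10 genes, 5 lower and 1 higher, where 51.9% of all genes tested did not overlap, 26.3% lower and 25.6% higher.

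**Figure D1:**
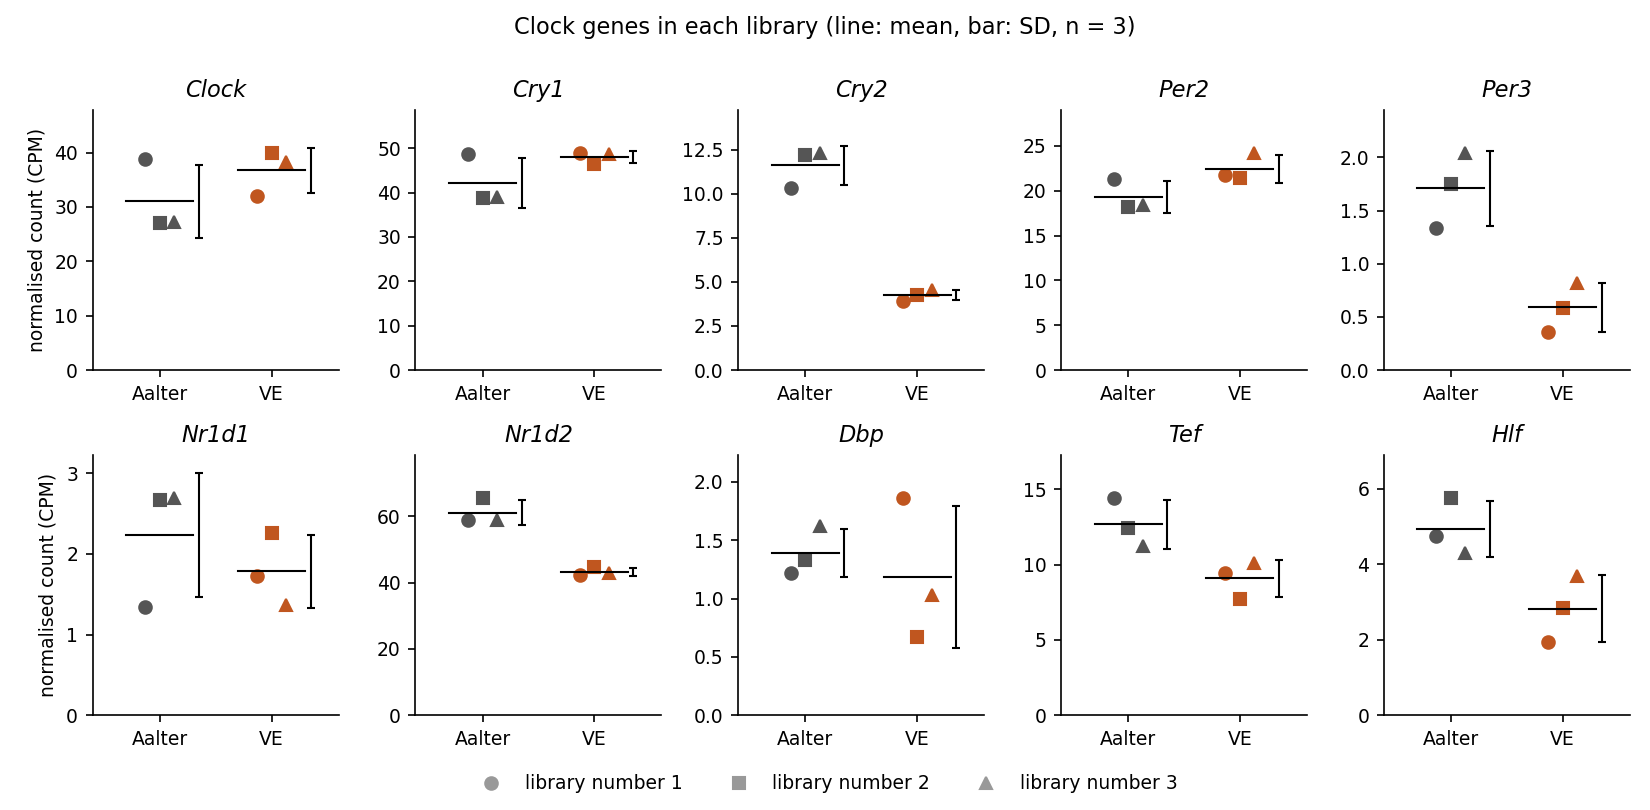
Normalised counts (CPM, linear axes from 0) of the 10 clock genes in the 3 Aalter and 3 VE libraries, with symbols for the library number, a line for the mean and a bar for the SD (n = 3). Cry2 in VE lies between 3.94 and 4.52 CPM, below all Aalter libraries at 10.3 to 12.3 CPM, and Aalter-1 lies with VE for Clock and Cry1.

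Leaving out Aalter-1, 7 of the 10 clock genes passed, 4 lower and 3 higher, and 56.3% of the 12804 genes tested passed in that fit, 28.5% downward and 27.8% upward. The genes gained were Hlf, which was lower, and Clock, Cry1 and Per2, which were higher. For 8 of the 10 genes, all but Tef and Hlf, Aalter-1 lay beyond the other Aalter libraries on the side of VE, and for Clock, Cry1 and Dbp it lay within the range of VE. Over all genes tested these shares were 73.4% and 27.7%. Without both Aalter-1 and VE-1, 6 clock genes passed, 3 lower and 3 higher, against 55.6% of all genes, 28.4% downward and 27.2% upward. When the trends on GC content and transcript length were removed from all 6 libraries, 3 passed, with Cry2 and Nr1d2 lower and Per2 higher, against 26.2% of all genes, 12.8% downward and 13.5% upward.

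Of the cryptochromes, the strongest repressors of CLOCK and BMAL1, Cry2 fell and Cry1 did not pass. Cry2 (ENSMUSG00000068742, chromosome 2 from 92403646 to 92434043) stood at 10.3, 12.2 and 12.3 CPM in Aalter-1 to Aalter-3 and at 3.94, 4.27 and 4.52 CPM in VE-1 to VE-3. The Aalter libraries lay close together, VE closer still, and the groups were far apart. The means were 11.6 ± 1.08 and 4.25 ± 0.291 CPM (SD, n = 3). On the log2 scale Cry2 changed by -1.45 ± 0.14 (SE, adjusted p = 0.00378). Cry2 passed in all 16 alternative fits, with log2 fold changes from -1.58 to -1.03 and an adjusted p of at most 0.0461. The fall was smallest, at -1.03, with the trends on GC content and transcript length removed (adjusted p = 0.0111). Cry2 shares 295 exonic bases (4.67% of its exons) with D930015M05Rik on the other strand, for which no counts were given. The strand setting of the counting is not given, so reads of that gene may be counted for Cry2, which was not tested. Without Aalter-1 Cry2 was at -1.52 (adjusted p = 7.05e-06).

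Cry1 (ENSMUSG00000020038, chromosome 10 from 85131700 to 85185064) gave 48.6, 38.7 and 39.1 CPM in the Aalter libraries and 48.9, 46.4 and 48.6 CPM in VE. Aalter-1 lay among the VE libraries and the other Aalter libraries lay below them. Its log2 fold change of 0.19 ± 0.11 did not pass (adjusted p = 0.228), and without Aalter-1 it was 0.31 (adjusted p = 0.00371). Within each library the estimated counts of Cry2 were 21.3%, 31.5% and 31.4% of those of Cry1 in Aalter and 8.05%, 9.21% and 9.30% in VE. This ratio does not depend on how libraries are scaled, and it was lower in each VE library than in any Aalter library. Scaled by transcript length, Cry2 averaged 21.3% of Cry1 in Aalter and 6.74% in VE.

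The start regions of these genes, from the RefSeq promoter table (GRCm38.p6, 250 bases before to 50 after the start), are shown for the pair of cryptochromes, of which Cry2 fell and Cry1 did not pass, and for Per3, which fell with Cry2. Capitals mark matches, searched on both strands, to 4 elements. The E-box was searched as CACGTG. Its variant, the E'-box, was searched as CACGTT, which reads AACGTG on the other strand. The D-box was searched as TTATGCAA or TTATGTAA. The ROR element was searched as TAGGTCA, with TGGGTCA as its alternative. Cry2 lies on the minus strand at chr2:92434020-92434319, Cry1 on the minus strand at chr10:85185005-85185304 and Per3 on the minus strand at chr4:151044616-151044915.
Cry2: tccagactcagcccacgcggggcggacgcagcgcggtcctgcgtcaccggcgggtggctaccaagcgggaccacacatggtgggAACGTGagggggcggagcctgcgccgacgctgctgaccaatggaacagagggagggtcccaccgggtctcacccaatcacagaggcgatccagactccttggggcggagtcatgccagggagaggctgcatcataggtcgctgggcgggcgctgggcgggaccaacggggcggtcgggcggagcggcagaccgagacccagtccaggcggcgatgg
Cry1: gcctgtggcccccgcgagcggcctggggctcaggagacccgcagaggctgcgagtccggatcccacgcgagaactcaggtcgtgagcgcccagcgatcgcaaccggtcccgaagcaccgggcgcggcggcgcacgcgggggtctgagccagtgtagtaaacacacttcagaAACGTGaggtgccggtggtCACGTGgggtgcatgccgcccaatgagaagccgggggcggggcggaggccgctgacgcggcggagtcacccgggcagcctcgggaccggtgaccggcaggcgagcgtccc
Per3: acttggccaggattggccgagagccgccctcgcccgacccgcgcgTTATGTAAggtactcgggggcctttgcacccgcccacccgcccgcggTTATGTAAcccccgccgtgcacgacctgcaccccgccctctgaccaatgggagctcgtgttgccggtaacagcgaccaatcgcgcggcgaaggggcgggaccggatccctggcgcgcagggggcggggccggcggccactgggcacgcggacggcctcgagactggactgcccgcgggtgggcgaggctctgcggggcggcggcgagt
No match overlapped another. The Cry1 window held an E-box that begins 60 bases before the start and an E'-box that begins 79 bases before it, the Cry2 window held an E'-box alone, and the Per3 window held a pair of D-boxes that begin 205 and 158 bases before the start. Of the 32851 windows of this length in the table, 7.15% held the E-box, 4.68% the E'-box, 1.66% either D-box and 6.45% either ROR element. The table held windows for 9 of the 10 clock genes, all but Per2, and 12 windows in all. Tef had an E-box in each of its 2 windows and Nr1d1 an E'-box, while the windows of Clock, Nr1d2, Dbp and Hlf held none of these letters. A match is a description of the sequence only.

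Of the period genes, Per3 fell and Per2 did not pass. Per3 (ENSMUSG00000028957, chromosome 4 from 151003652 to 151044665), the period gene that the clock can most readily do without, was the lowest of the 10 genes per length. It had 22, 21 and 34 estimated counts in Aalter and 5, 7 and 12 in VE, or 1.34, 1.75 and 2.04 CPM against 0.358, 0.587 and 0.822 CPM. Every Aalter library was above every VE library, though a count of 3 is already 0.180 to 0.251 CPM in these libraries and the VE values are not far above it. The fitted change was -1.52 ± 0.38 on the log2 scale (adjusted p = 0.0240). This call was lost each time a library other than Aalter-1 was left out, in 5 fits (adjusted p from 0.0566 to 0.108), and with the trends on GC content and transcript length removed (-1.11, adjusted p = 0.0585). In those 5 fits its log2 fold change ran from -1.87 to -1.26, and only 1.38% to 7.14% of all genes passed. Without Aalter-1 Per3 was at -1.67 (adjusted p = 0.00561).

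Per2 (ENSMUSG00000055866, chromosome 1 from 91415982 to 91459324), a central repressor of the loop, had 21.3, 18.2 and 18.4 CPM in Aalter against 21.7, 21.4 and 24.2 CPM in VE. The groups did not overlap, but Aalter-1 lay just below the lowest VE library. Per2 did not pass with all libraries (0.22 ± 0.12, adjusted p = 0.186). Without Aalter-1 it passed (0.30, adjusted p = 0.0304), as it did with the trends on GC content and transcript length removed (0.71, adjusted p = 0.0176). Estimated counts of Per3 were 6.29%, 9.63% and 11.1% of those of Per2 in Aalter and 1.65%, 2.75% and 3.39% in VE, so this ratio too was lower in each VE library than in any Aalter library.

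**Figure D2:**
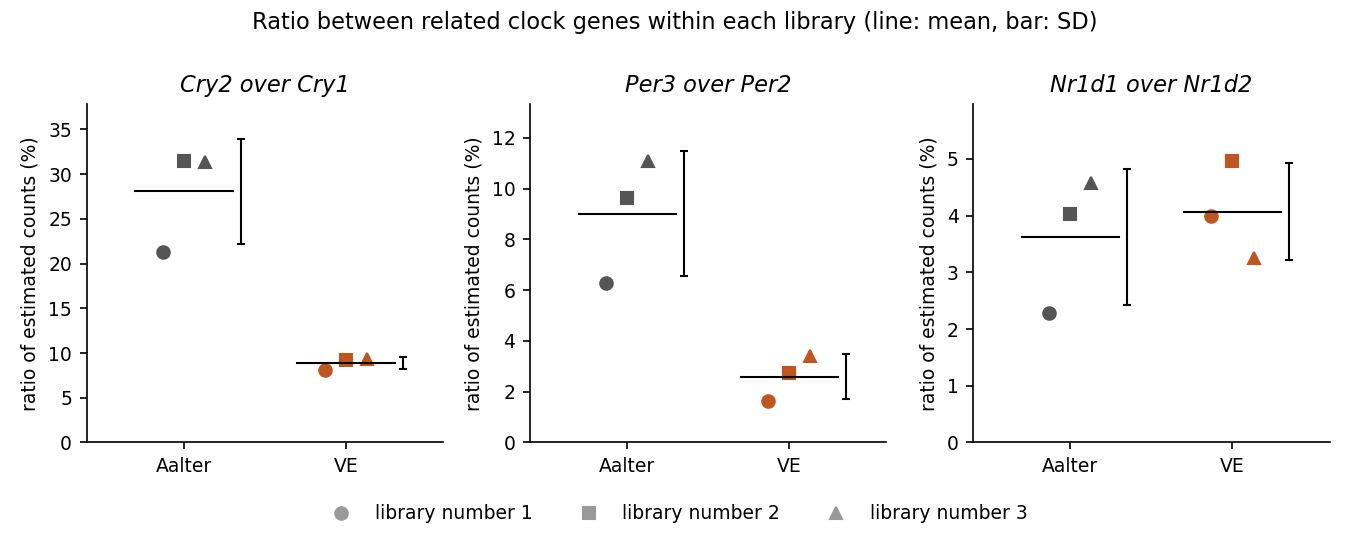
Estimated counts of 1 gene as a percentage of those of a related gene in the same library (linear axes from 0), for Cry2 over Cry1, Per3 over Per2 and Nr1d1 over Nr1d2, with a line for the mean and a bar for the SD (n = 3). The first pair of ratios separates the groups, with Cry2 over Cry1 at 8.05% to 9.30% in VE and at least 21.3% in Aalter, while Nr1d1 over Nr1d2 overlaps.

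Clock (ENSMUSG00000029238, chromosome 5 from 76209868 to 76304792), which encodes the histone acetylase partner of BMAL1, was measured at 38.8, 27.0 and 27.2 CPM in Aalter against 32.0, 39.9 and 38.2 CPM in VE. Aalter-1 was higher than VE-1 and VE-3, and the groups overlapped. Its log2 fold change of 0.24 ± 0.17 did not pass (adjusted p = 0.296), and without Aalter-1 it was 0.44 (adjusted p = 0.00342).

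Of the REV-ERB genes, Nr1d2 was abundant and fell, and Nr1d1 was scarce and did not pass. Nr1d2 (ENSMUSG00000021775, chromosome 14 from 18204054 to 18239127) had 58.8, 65.5 and 59.0 CPM in Aalter against 42.4, 44.7 and 42.8 CPM in VE, with means of 61.1 ± 3.84 and 43.3 ± 1.25 CPM. The groups were apart and Aalter-1 lay with Aalter-3. The difference was -0.50 ± 0.086 on the log2 scale (adjusted p = 0.0101), and -0.52 without Aalter-1 (adjusted p = 0.000104). Nr1d2 passed in 14 of 16 alternative fits, all but those without VE-1 (adjusted p = 0.0578) and without VE-2 (adjusted p = 0.0608).

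Nr1d1 (ENSMUSG00000020889, chromosome 11 from 98767932 to 98775333) stood at 1.34, 2.67 and 2.69 CPM in the Aalter libraries and at 1.72, 2.26 and 1.37 CPM in VE. Aalter-1 was the lowest of all 6 libraries and the groups overlapped. Its fitted change was -0.32 ± 0.35 (adjusted p = 0.499), and -0.59 without Aalter-1 (adjusted p = 0.112). Nr1d1 shares 263 exonic bases (8.55% of its exons) with Thra, a thyroid hormone receptor gene on the other strand, and its estimated counts were not whole in 5 of 6 libraries. No source used here gives the strand setting of the counting, so reads of this pair may be split between them and the values are uncertain. Thra was at 2.25 to 3.84 CPM in Aalter and 3.35 to 3.87 CPM in VE and did not pass (0.27 ± 0.24, adjusted p = 0.404).

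The PAR bZIP output factors were each lower in VE by their fitted value, and none of the 3 passed. Hlf (ENSMUSG00000003949, chromosome 11 from 90336536 to 90390895), also a factor of blood stem cells, had 4.75, 5.75 and 4.31 CPM in Aalter against 1.93, 2.85 and 3.70 CPM in VE. The groups did not overlap, with VE-1 the lowest library. Hlf missed the threshold at -0.80 ± 0.27 (adjusted p = 0.0555), and was at -0.82 without Aalter-1 (adjusted p = 0.0261). Tef (ENSMUSG00000022389, chromosome 15 from 81802421 to 81826863), a close relative, had 14.4, 12.4 and 11.2 CPM in Aalter against 9.46, 7.71 and 10.1 CPM in VE. Here too the groups did not overlap, and Aalter-1 was the highest library. Tef shares 193 exonic bases (2.45% of its exons) with Gm17597 on the other strand, for which no counts were given. The value of Tef was -0.47 ± 0.16 on the log2 scale (adjusted p = 0.0571), -0.37 without Aalter-1 (adjusted p = 0.0626) and -0.14 with the trends on GC content and transcript length removed (adjusted p = 0.556).

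Dbp (ENSMUSG00000059824, chromosome 7 from 45705088 to 45710203), in many tissues the output factor with the widest daily swing, had 1.22, 1.33 and 1.62 CPM in Aalter against 1.86, 0.670 and 1.03 CPM in VE. The VE libraries held both the highest and the lowest value. Its log2 fold change was -0.22 ± 0.40 (adjusted p = 0.701), at -0.31 without Aalter-1 (adjusted p = 0.579) and at 0.27 with the trends on GC content and transcript length removed. Dbp shares 539 exonic bases (18.0% of its exons) with Sphk2, a sphingosine kinase gene on the other strand, and its estimated counts were not whole in any library, so its values are uncertain as well. Sphk2 was at 17.8 to 22.4 CPM in Aalter and 21.9 to 22.2 CPM in VE. These output factors are also made by liver, and 12 liver markers summed to 922 CPM in Aalter-1 and 1202 CPM in VE-1 but to between 34.4 and 64.1 CPM in the other libraries. VE-1 had the highest Dbp and the lowest Hlf, and the part of these traces in the values was not tested. Without Aalter-1 and VE-1, Dbp was at -0.78 (adjusted p = 0.167) and Hlf at -0.59 (adjusted p = 0.0611).

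**Figure D3:**
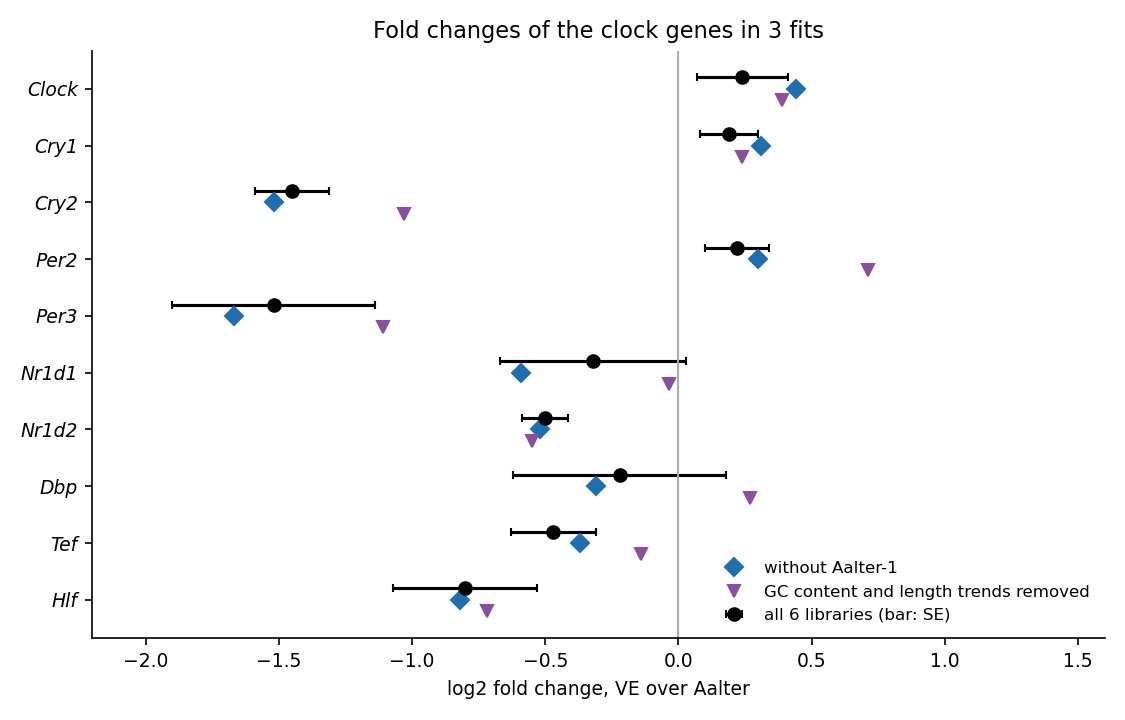
Log2 fold changes of the 10 clock genes, VE over Aalter, from all 6 libraries (circles, bars SE), without Aalter-1 (diamonds) and after removal of trends on GC content and transcript length (triangles). Cry2, Per3, Nr1d2, Hlf, Tef and Nr1d1 are below 0 in all 3 fits, Nr1d1 only just with the trends removed (-0.036). Clock, Cry1 and Per2 are above 0, and Dbp changes sign.

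Levels were compared between genes as CPM per kilobase of the longest annotated transcript. In Aalter the order was Cry1 (mean 13.9 CPM per kilobase), Nr1d2 (13.1), Per2 (3.31), Clock (3.18), Cry2 (2.92), Tef (2.88), Hlf (0.875), Nr1d1 (0.821), Dbp (0.756) and Per3 (0.285). The ranges of Cry1 and Nr1d2 overlapped, as did those of neighbours from Per2 to Tef and from Hlf to Dbp, whereas Per3, at 0.223 to 0.339, lay below all others. In VE the means were 15.9 for Cry1, 9.29 for Nr1d2, 3.85 for Per2, 3.77 for Clock, 2.07 for Tef, 1.07 for Cry2, 0.656 for Nr1d1, 0.646 for Dbp, 0.501 for Hlf and 0.0982 CPM per kilobase for Per3. There the range of Cry2, 0.991 to 1.14, did not touch those of Per2, Clock or Tef but overlapped that of Dbp, and the ranges of Cry1 (15.3 to 16.2) and Nr1d2 (9.10 to 9.60) lay apart. Per2 and Clock overlapped in VE, Nr1d1, Dbp and Hlf overlapped one another, and Per3 was again the lowest.

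Beyond these 10 genes, 31 other genes of the pathway were followed, of which 27 had enough counts to test. Of these, 5 rose, 6 fell and 16 did not pass. The share called was 40.7%, near the 32.3% of all genes, with a median log2 fold change of -0.12. The activator gene Arntl, listed in the table as Bmal1, had 19.2, 22.4 and 23.8 CPM in Aalter against 15.5, 14.0 and 13.8 CPM in VE, so that the groups did not overlap. Its log2 fold change was -0.60 ± 0.13 (adjusted p = 0.0158). Rora, a receptor gene that group 2 innate lymphoid cells need, did not pass, at 0.20 ± 0.17 (adjusted p = 0.385), but passed without Aalter-1 (0.37, adjusted p = 0.0407). Npas2, a stand-in for Clock, had 5, 6 and 9 counts in Aalter and 3, 1 and 2 in VE and was not tested.

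Among the other repressors, Ciart and Cipc, which inhibit CLOCK and BMAL1, fell and Nfil3 rose. Per1, which glucocorticoids induce, had 85.2, 221 and 210.5 CPM in Aalter against 84.8, 82.4 and 82.3 CPM in VE. Aalter-1 was thus at the level of VE, well below the other Aalter libraries. Its log2 fold change was -1.05 ± 0.34 with all libraries (adjusted p = 0.0558), -1.37 without Aalter-1 (adjusted p = 9.93e-09) and -0.32 with the trends on GC content and transcript length removed (adjusted p = 0.349). Ciart showed the same order, with 6.45, 15.8 and 12.6 CPM in Aalter against 5.30, 5.61 and 5.62 CPM in VE (-1.07 ± 0.31, adjusted p = 0.0362). In limma-voom Ciart did not pass (-0.95, adjusted p = 0.0796). Cipc had a log2 fold change of -0.69 ± 0.14 (adjusted p = 0.0146). Nfil3, which competes with DBP, TEF and HLF for the D-box and is needed for innate lymphoid cells, had 137, 98.6 and 105 CPM in Aalter against 183, 189 and 161 CPM in VE (0.65 ± 0.14, adjusted p = 0.0180). Bhlhe40, an E-box repressor, did not pass (-0.30 ± 0.15, adjusted p = 0.162), but did without Aalter-1 (-0.44, adjusted p = 0.000639).

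Of 8 tested genes for kinases and ubiquitin ligases that act on PER and CRY, 1 fell and 7 did not pass, against 19.5% of all genes lower. The faller was Csnk1d, the casein kinase that marks PER for degradation (-0.45 ± 0.10, adjusted p = 0.0198), which was at -0.15 with the trends on GC content and transcript length removed (adjusted p = 0.301). Of 10 clock-controlled outputs, 4 rose, 1 fell and 5 did not pass, where 12.8% of all genes rose and 19.5% fell. This list was chosen with earlier results of these data known, so the count is not a result about clock outputs as a group. Nampt, the rate-limiting enzyme of NAD salvage, rose by 0.65 ± 0.14 and Pnp, a purine nucleoside phosphorylase, by 0.68 ± 0.12. Fmo2, a flavin monooxygenase of lung, rose by 1.06 ± 0.32 and the tetraspanin gene Tspan4 by 0.85 ± 0.23 (adjusted p from 0.0112 to 0.0417 for these 4). With library size alone as scaling, Nampt, Fmo2 and Tspan4 did not pass (adjusted p from 0.0504 to 0.0814). Por, the electron donor of cytochrome P450 enzymes, was lower (-0.99 ± 0.24, adjusted p = 0.0229), with Aalter-1 at 96.0 CPM against 189.8 and 173 CPM in the other Aalter libraries and 72.5 to 80.0 CPM in VE. Pnp shares exonic bases with a gene on its own strand and Tspan4 with Chid1 on the other, so their counts are uncertain. Each of the 11 calls was lost when any library other than Aalter-1 was left out, with adjusted p-values of up to 0.156, and each passed without Aalter-1. In those 5 fits that kept Aalter-1 only 1.38% to 7.14% of all genes passed, and the 11 log2 fold changes kept their direction.

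**Figure D4:**
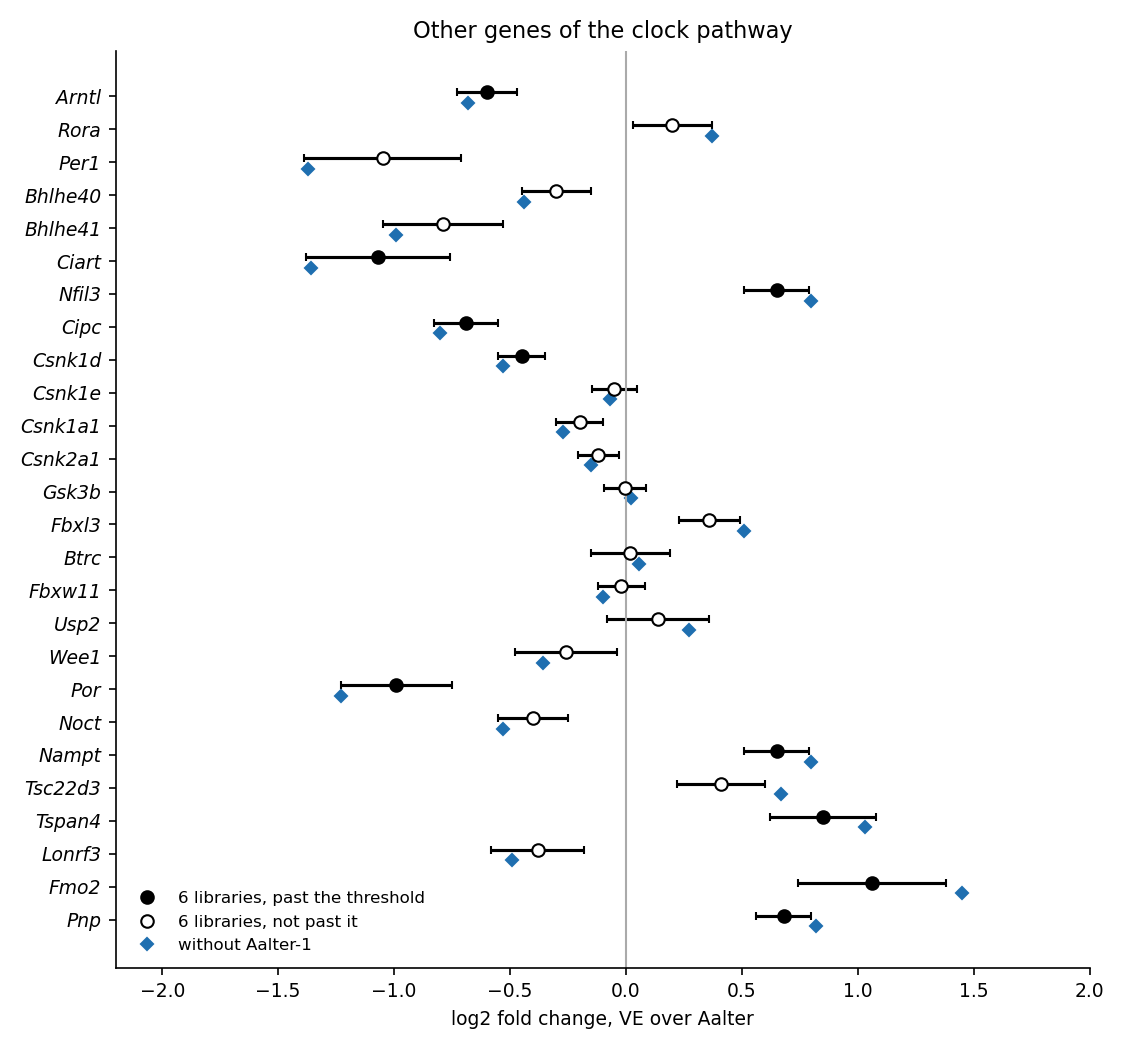
Log2 fold changes, VE over Aalter, of other tested genes of the clock pathway, from all 6 libraries (circles, bars SE, filled where the adjusted p is under 0.05) and without Aalter-1 (diamonds). Ciart, Per1 and Por lie near -1, while Nfil3, Nampt, Pnp, Tspan4 and Fmo2 lie between 0.65 and 1.06.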

How the data were processed

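RNA was sequenced from 6 libraries, 3 labelled Aalter and 3 labelled VE, prepared, per the labels' protocols, with an mRNA kit. The deposited table gives unscaled estimated counts of each gene, of which 10.5% to 12.2% in a library were not whole. The genome build is mm10 per the submitters' processing notes, and no source used here names the aligner, counter or strand setting. The estimated counts deposited by the authors were rounded to integers. Differences were tested in R 4.3.3 with edgeR 4.0.16, using TMM factors, filterByExpr, robust quasi-likelihood fits with group as the only term, and Benjamini-Hochberg adjustment at 0.05. CPM use the library size multiplied by the TMM factor, and each SE is the size of the log2 change over the square root of F. Also tried were DESeq2 1.42.0, limma-voom 3.58.1, RLE factors, library size alone, no filter, a mean of at least 5 CPM, a replicate block, leaving out libraries, and offsets from splines (5 degrees of freedom) on GC content and length of the longest transcript. Coordinates, overlaps and transcript lengths are from GENCODE vM21 (mm10). Named genes were all 10 clock genes, and of 31 other pathway genes those past the test plus Arntl, Npas2, Per1, Rora, Nfil3 and Bhlhe40. The result of 1 gene that this rule takes is in the counts and is not reported here. Members, lists and alternatives were chosen with earlier results of these data known. Libraries differed from each other by more than sampling noise (median chi-square per gene at least 0.693 against 0.455 for noise alone). Floors cover counting error only.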

Additional observations from a re-analysis of the deposited data

How the results depend on the processing

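Calls depended on single libraries. Leaving out each library in turn gave 179 to 7213 genes past the threshold against 4054, 1 to 7 clock genes against 3, and 0 to 19 of the other pathway genes against 11. The 0 came from edgeR in the 5 fits that kept Aalter-1, where 11 to 13 of those genes were at an unadjusted p under 0.05, and DESeq2 and limma-voom on all 6 libraries called 15 and 10. Without Aalter-1 alone the counts were 7213, 7 and 19, and without Aalter-1 and VE-1 they were 6963, 6 and 19. Library size alone as scaling shifted the median log2 fold change of all genes to -0.12, gave 5 clock genes (Tef and Hlf in addition) and made 13.3% of all calls upward, against 39.8%. With the trends on GC content and length removed 3 clock genes passed, Cry2, Nr1d2 and Per2, and 51.3% of all calls were upward. The replicate numbers were not taken as pairs, since the labels tie them to no shared source. The libraries numbered 1 did share liver transcripts, with liver markers at 922 CPM in Aalter-1 and 1202 CPM in VE-1. In the other libraries these markers summed to 34.4 to 64.1 CPM, and what the numbers stand for was not tested. Deviations of same-numbered libraries correlated at 0.299, 0.272 and 0.0532, and Aalter-1 and Aalter-2 correlated best with their own number and Aalter-3 with VE-2, so a source shared by number was not tested further. A replicate block gave 3267 genes, 3 clock genes and 10 other pathway genes, and the block with the GC content and length offsets 2523, 3 and 6.

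Of 156 refitted values of the clock genes, 133 kept direction and side of the threshold, 9 lost the call, 11 gained it and 3 changed sign. Dbp ranged from -0.70 to 0.032 when libraries were left out, and was at 0.27 with the offsets and 0.21 with block and offsets. Among the other pathway genes, values near 0 changed sign. Csnk1e was at 0.27 with the offsets, with or without the block. Gsk3b ranged from -0.064 to 0.022 without single libraries, at 0.035 without Aalter-1 and VE-1 and 0.20 with the offsets, with or without the block. Btrc ranged from -0.11 to 0.12, at -0.12 with library size alone and -0.045 and -0.038 with the offsets without and with the block. Fbxw11 ranged from -0.098 to 0.048, at 0.010 and 0.019 with the same offsets, and Usp2 from -0.029 to 0.28, at -0.0056 with library size alone. The cause of these changes was not tested. Depth limits Per3, Nr1d1 and Dbp, with at most 44.99 estimated counts in a library.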

Other observations

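Estimated counts of Per1 were 400%, 1214% and 1145% of those of Per2 in the Aalter libraries, against 390%, 385% and 339% in VE, a ratio that is free of library scaling and that places Aalter-1 beside VE rather than beside its own group. For 24 of the 27 tested other pathway genes Aalter-1 lay beyond the other Aalter libraries on the side of VE, and for 9 within the range of VE, against 73.4% and 27.7% of all genes tested. Of the 4 pathway genes with too few counts to test, Arntl2, Rorb and Fbxl21 had at most 3 estimated counts in any library.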
